A study of Mus musculus with 6 samples.

Results

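The genes described here are those of cytosolic and mitochondrial aminoacyl-tRNA synthetases, together with Xpot, in the cerebral cortex of mice without HtrA2. The 36 members were taken from a list of gene symbols, chosen with earlier results of these data known. Each was measured by every probe set that the platform annotation gives to its symbol alone. All 36 were found, out of 18193 genes named on the array, at 76 of 45037 probe sets. Of these, 20 were classed as cytosolic (44 probe sets) and 16, whose symbols end in 2, as mitochondrial (32 probe sets). The cytosolic class includes Gars and Kars, whose genes supply both compartments, and Xpot, which is not a synthetase.

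Cortex was compared between HtrA2 knockout mice (HtrA2_KO, 3 arrays) and wild type mice (WT, 3 arrays). The animals were littermates of both genotypes, killed at postnatal day 29, and untreated as far as the labels say. The labels give no sex, strain or litter and do not state how the knockout allele was made, nor that each array came from its own animal, so the spread behind the p-values may be partly technical. HtrA2 is a protease that resides between the membranes of mitochondria, and the submitters chose cortex because they found no neuron loss there.

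Aminoacyl-tRNA synthetases join each amino acid to its own tRNA, which makes the substrate of the ribosome. Mammals keep separate nuclear genes for most cytosolic and mitochondrial enzymes, and the mitochondrial ones are imported to serve translation of transcripts of mitochondrial DNA. In mammalian cells many of the cytosolic synthetase genes, and Xpot, are known targets of ATF4, the transcription factor of the integrated stress response and of amino acid shortage, while mitochondrial synthetase genes are mostly regarded as housekeeping genes of the organelle. Several cytosolic enzymes sit in a multisynthetase complex held by the scaffold proteins Aimp1, Aimp2 and Eef1e1, and the others are free.

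Among the cytosolic members 10 of 20 rose in HtrA2_KO cortex and 0 fell, where 1.39% of all named genes rose and 1.05% fell. The other 10 missed the threshold. Since the members were chosen with earlier results of these data known, these shares are a description, and no test was made over the list. Each gene is counted at its brightest probe set, by the mean of the 6 arrays. Of 16 mitochondrial members, 0 rose and 0 fell by limma's moderated test. At an unadjusted p under 0.05, 14 cytosolic members were higher and 0 lower, and 0 mitochondrial members were higher and 1 lower, beside 2061 higher and 1672 lower of the 18193 named genes. The median log2 difference was 0.44 (1.36-fold) over the cytosolic members and 0.06 over the mitochondrial members, beside 0.02 over all named genes. Levels are on a log2 scale, as RMA gives them, and differences are HtrA2_KO minus WT, with ± for their standard error (n = 3 arrays in each group). A gene passed at an adjusted p under 0.05 by limma, adjusted after Benjamini and Hochberg across the 45037 probe sets tested. In bulk tissue, more RNA per cell and more cells of a type cannot be told apart.

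**Figure D1:**
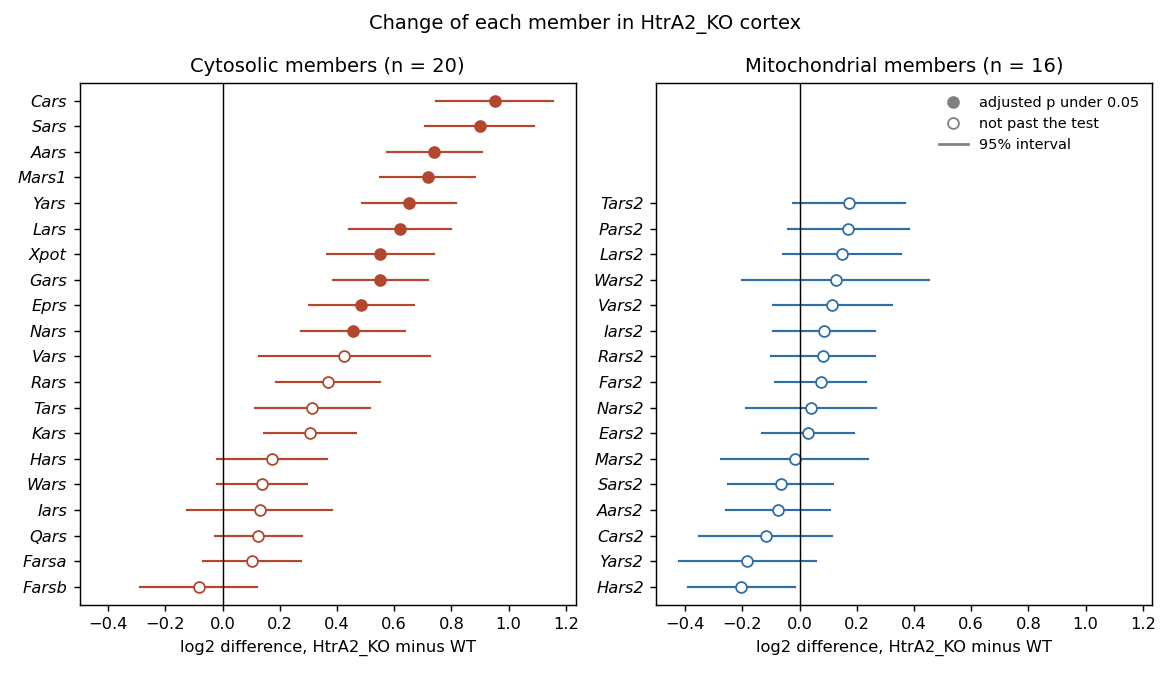
Log2 difference (HtrA2_KO minus WT, x axis) of each of the 20 cytosolic and 16 mitochondrial members at its brightest probe set. Lines are 95% intervals from the limma fit and filled points passed at an adjusted p under 0.05. The 10 filled points are all cytosolic and lie between 0.46 and 0.95, and the mitochondrial points lie between -0.20 and 0.17.

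The enzyme for cysteine, Cars, had the largest rise among the members. Its level was 9.45, 9.49 and 9.38 in HtrA2_KO replicates 1, 2 and 3, against 8.65, 8.39 and 8.45 in WT replicates 1, 2 and 3. The groups stood apart by more than their spread, and the rise was 0.95 ± 0.09, or 1.93-fold (adjusted p = 0.00494). A dim second probe set of Cars differed by 0.05 (adjusted p = 0.903), with overlapping groups.

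Sars, which charges tRNA with serine, had levels of 11.36, 11.60 and 11.45 in HtrA2_KO cortex and 10.58, 10.54 and 10.58 in WT cortex. It rose by 0.90 ± 0.08, 1.86-fold (adjusted p = 0.00477), and its second probe set rose by 0.88 (adjusted p = 0.00426). In Cars and Sars alike, HtrA2_KO replicate 2 was the highest knockout array.

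Aars, the alanine enzyme, read 11.72, 11.68 and 11.74 in HtrA2_KO cortex and 11.00, 11.02 and 10.90 in WT cortex. It rose by 0.74 ± 0.07, 1.67-fold (adjusted p = 0.00528), and by 0.80 at its other probe set (adjusted p = 0.00426). The 3 knockout arrays lay within a narrow band, with an SD of 0.0304.

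Mars1 charges tRNA with methionine, including the initiator tRNA. Its levels were 10.49, 10.35 and 10.39 in HtrA2_KO cortex and 9.69, 9.67 and 9.71 in WT cortex, a rise of 0.72 ± 0.07, 1.64-fold (adjusted p = 0.00618). Yars, the tyrosine enzyme, had 10.64, 10.53 and 10.63 in HtrA2_KO cortex and 9.97, 9.97 and 9.91 in WT cortex, a rise of 0.65 ± 0.07, 1.57-fold (adjusted p = 0.00975). Neither gene had overlapping groups, and each was measured by 1 probe set.

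The leucine enzyme Lars, a member of the multisynthetase complex that also takes part in leucine sensing by mTORC1, had levels of 10.42, 10.46 and 10.28 in HtrA2_KO cortex and 9.78, 9.75 and 9.77 in WT cortex. It rose by 0.62 ± 0.08, 1.54-fold (adjusted p = 0.0145). Gars, the glycine enzyme of cytosol and mitochondria, had 11.60, 11.47 and 11.52 in HtrA2_KO cortex and 10.95, 10.99 and 11.00 in WT cortex, a rise of 0.55 ± 0.07 (adjusted p = 0.0162). Dominant mutations of the human gene cause a form of Charcot-Marie-Tooth neuropathy.

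Xpot, the exportin that carries tRNA out of the nucleus, read 11.59, 11.36 and 11.46 in HtrA2_KO cortex and 10.90, 10.94 and 10.92 in WT cortex. It rose by 0.55 ± 0.08 (adjusted p = 0.0227), and 3 of its 4 probe sets passed, with rises of 0.46 to 0.66. The fourth, with levels under 3.9, differed by 0.05 (adjusted p = 0.848).

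Eprs, a bifunctional enzyme for glutamate and proline, had 10.08, 9.94 and 10.13 in HtrA2_KO cortex and 9.58, 9.51 and 9.60 in WT cortex. It rose by 0.48 ± 0.08 (adjusted p = 0.0305), at 1 of its 4 probe sets, and the other probe sets differed by 0.16 to 0.46 without passing. Nars, the asparagine enzyme, had 12.93, 12.74 and 12.90 in HtrA2_KO cortex and 12.42, 12.41 and 12.37 in WT cortex. It rose by 0.46 ± 0.08 (adjusted p = 0.0351), and by 0.61 at its second probe set (adjusted p = 0.0125). These were the smallest rises that passed.

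The other 10 cytosolic members did not pass, and their differences ran from 0.43 to -0.08. Vars, Rars, Tars and Kars, for valine, arginine, threonine and lysine, differed by 0.43 ± 0.13, 0.37 ± 0.08, 0.31 ± 0.09 and 0.31 ± 0.07 (adjusted p = 0.147, 0.0644, 0.122 and 0.0758). In each of these 4 the knockout arrays all lay above the WT arrays. Vars had the widest knockout spread of the class, with 9.28, 8.74 and 8.94 in HtrA2_KO cortex and 8.53, 8.55 and 8.59 in WT cortex.

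Hars, Wars, Iars, Qars and Farsa, for histidine, tryptophan, isoleucine, glutamine and the alpha subunit of the phenylalanine enzyme, differed by 0.17, 0.14, 0.13, 0.12 and 0.10. Farsb, the beta subunit, was the 1 cytosolic member below WT at its used probe set, at 10.89, 10.71 and 10.64 in HtrA2_KO cortex and 10.79, 10.80 and 10.90 in WT cortex, a difference of -0.08 ± 0.09 (adjusted p = 0.710). Its 4 probe sets ranged from -0.29 to 0.06 and none passed. Iars, an enzyme of the same complex as Lars, differed with a 95% interval from -0.13 to 0.38, and its groups overlapped. Wars is also an interferon-induced gene in human cells. Its 4 probe sets differed by 0.05 to 0.14.

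In all, 17 of 20 cytosolic members had every HtrA2_KO array above every WT array, where 15.6% of named genes did, and 0 had every knockout array below, where 12.8% did. The 3 with overlapping groups were Farsa, Iars and Farsb. Counting a member as risen if any of its probe sets passed gave the same 10 of 20, beside 1.64% of named genes. Of all 44 cytosolic probe sets 15 rose and 0 fell, where 0.884% of all probe sets on the array rose.

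The members can be grouped by their place in the multisynthetase complex. Of 7 members in the complex 3 rose (Mars1, Lars and Eprs), with a median difference of 0.37 and a range of 0.12 to 0.72. Of 12 cytosolic synthetases outside it 6 rose, with a median of 0.44 and a range of -0.08 to 0.95. Synthetases also form a class I and a class II by the fold of their catalytic domain, and 4 of 9 rose in each, with medians of 0.43 and 0.31. The bifunctional Eprs was left out of the last split, and no test was made between these groups.

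Promoter sequence was examined because many members rose together. RefSeq promoters of build GRCm38.p6, from 250 bases before to 50 bases after the start, were matched for 27 of the 36 members. The members not matched were Cars, Hars, Lars, Nars, Rars, Vars, Wars, Hars2 and Pars2. The motif searched was TGATGNAA, on both strands, the core of the composite element that ATF4 binds with C/EBP proteins. It was held by 5 of 13 cytosolic promoters, Aars, Gars, Yars, Iars and Tars, and by 0 of 14 mitochondrial promoters, beside 3.91% of 32544 promoters of the same length. The stricter TGATGCAA, which it contains, was held by Aars, Yars, Iars and Tars, beside 0.867% of promoters.

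The 48 bases around each match are shown on the strand of the gene, since they show where the motif lies in genes that rose and in genes that did not pass, with the match in capitals. Those of genes that rose are the following, the first of Aars at chr8:111033710-111033757 (+), the second of Aars at chr8:111033831-111033878 (+), Yars at chr4:129189886-129189933 (+) and Gars at chr6:55037951-55037998 (+).
Aars, first: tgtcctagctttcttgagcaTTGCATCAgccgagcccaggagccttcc
Aars, second: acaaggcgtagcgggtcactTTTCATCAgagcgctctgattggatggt
Yars: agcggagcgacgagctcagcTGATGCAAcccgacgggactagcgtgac
Gars: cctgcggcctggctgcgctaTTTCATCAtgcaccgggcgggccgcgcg

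Those of genes that did not pass are Iars at chr13:49682117-49682164 (+) and Tars at chr15:11399646-11399693 (-).
Iars: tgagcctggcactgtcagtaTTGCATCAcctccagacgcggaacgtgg
Tars: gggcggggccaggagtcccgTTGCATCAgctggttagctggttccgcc

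The first match of Aars begins 112 bases before the start, and the matches of Gars and Tars begin 30 and 15 bases before it. Those of Yars, of Iars and the second of Aars begin at bases 4, 8 and 10 of the transcript. Among the cytosolic members with a promoter, 3 of 7 that rose and 2 of 6 that did not pass held the motif. The promoter of Sars, which had the second largest rise, holds no match in its window at chr3:108445210-108445509 (-), and is shown whole for contrast with Aars.
Sars: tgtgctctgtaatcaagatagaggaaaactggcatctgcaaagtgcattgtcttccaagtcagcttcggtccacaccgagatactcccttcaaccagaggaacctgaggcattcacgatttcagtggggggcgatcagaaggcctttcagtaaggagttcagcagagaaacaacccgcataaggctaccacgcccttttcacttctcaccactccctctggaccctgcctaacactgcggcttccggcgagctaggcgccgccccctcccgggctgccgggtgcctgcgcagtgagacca

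Mars1, Xpot and Eprs also rose without a match in this window, which says only that these letters are not there. The cyclic AMP response element TGACGTCA was found in 0 of the 27 promoters, beside 1.80% of all, and the CCAAT box (ATTGG or CCAAT) in 7 of 13 cytosolic and 6 of 14 mitochondrial promoters, beside 37.4% of all. A match is a description of sequence, not of binding.

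The differences of the 16 mitochondrial members lay between -0.20 and 0.17. Tars2, Pars2, Lars2, Wars2 and Vars2 were the highest, at differences of 0.17, 0.17, 0.15, 0.13 and 0.11. Iars2, Rars2, Fars2, Nars2 and Ears2 lay between 0.03 and 0.09, and Mars2, Sars2, Aars2, Cars2, Yars2 and Hars2 were below 0. None passed, and 13 of 16 had overlapping groups, near the 71.6% of named genes that did. Rars2 and Aars2, whose human mutations cause a cerebellar hypoplasia and a cardiomyopathy, differed by 0.08 ± 0.08 and -0.08 ± 0.08.

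Hars2, the mitochondrial histidine enzyme, had the smallest p of the mitochondrial class. Its levels were 8.06, 8.01 and 7.87 in HtrA2_KO cortex and 8.21, 8.23 and 8.11 in WT cortex, every knockout array below every WT array. The difference was -0.20 ± 0.08 (adjusted p = 0.258), and -0.29 at the second probe set (adjusted p = 0.184). Hars2 lies next to Hars in the RefSeq gene order, and Hars differed the other way, by 0.17 and 0.27 at its probe sets (adjusted p = 0.351 and 0.124), without passing.

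Tars2, for threonine, followed, with 8.59, 8.57 and 8.37 in HtrA2_KO cortex and 8.33, 8.30 and 8.39 in WT cortex (0.17 ± 0.08, adjusted p = 0.356). Its groups overlapped through HtrA2_KO replicate 3, and its second probe set differed by less than 0.01. Pars2, for proline, had 7.82, 8.05 and 7.94 in HtrA2_KO cortex and 7.90, 7.71 and 7.70 in WT cortex (0.17 ± 0.09, adjusted p = 0.409), again with overlap.

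The probe sets of some members that did not pass differed in sign, so their brightest ones are given by array. Qars read 10.02, 10.03 and 10.03 in HtrA2_KO cortex and 9.92, 9.90 and 9.90 in WT cortex, and Farsa 8.14, 8.24 and 8.31 in HtrA2_KO cortex and 8.13, 8.14 and 8.11 in WT cortex. The difference of Qars was small, but its groups stood apart by more than their spread, with SDs of 0.0036 in HtrA2_KO and 0.013 in WT cortex. The groups of Farsa overlapped slightly. Lars2 read 8.91, 9.12 and 8.84 in HtrA2_KO cortex and 8.80, 8.84 and 8.79 in WT cortex, and Fars2 9.14, 9.06 and 9.09 in HtrA2_KO cortex and 9.06, 9.02 and 8.99 in WT cortex. These are the 2 mitochondrial members with every knockout array above every WT array, by margins smaller than the spread within the groups. Iars2 read 8.87, 8.74 and 8.81 in HtrA2_KO cortex and 8.64, 8.78 and 8.75 in WT cortex, and Nars2 8.71, 8.58 and 8.38 in HtrA2_KO cortex and 8.53, 8.57 and 8.45 in WT cortex. Cars2 read 7.54, 7.47 and 7.22 in HtrA2_KO cortex and 7.44, 7.53 and 7.62 in WT cortex, and Ears2 6.78, 6.71 and 6.78 in HtrA2_KO cortex and 6.70, 6.78 and 6.71 in WT cortex. The groups of these last 4 overlapped, and no other probe set of these 8 members passed.

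A missed threshold does not show that a gene kept its level, so the intervals were examined. The upper 95% bound of 15 of 16 mitochondrial members lay below the cytosolic median of 0.44, the exception being Wars2, whose bound was 0.45. All 16 upper bounds lay below the smallest cytosolic rise that passed, the 0.46 of Nars, a value that the threshold itself selects. The upper bounds of the cytosolic Hars, Wars, Iars, Qars, Farsa and Farsb lay below it too. They were 0.36, 0.29, 0.38, 0.28, 0.27 and 0.12, so this value does not separate the classes. Nars itself had a 95% interval from 0.28 to 0.64, and the upper bounds of Wars2, Pars2, Tars2, Lars2 and Vars2 lay inside it. The lowest lower bound was -0.42, for Yars2.

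Probe sets of mitochondrial members were dimmer, with a median WT signal of 7.98 beside 9.997 for cytosolic members. This reflects probes as well as transcripts, and RMA compresses differences at low signal. In the signal range that both classes share, 8.13 to 9.60 in WT cortex, 2 of 5 cytosolic members rose (Cars and Eprs, median difference of the 5 0.43) and 0 of 8 mitochondrial members rose (median 0.08, range -0.20 to 0.17). This range was set after the values were seen, and the part of signal in the class difference was not tested further.

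For 13 amino acids a cytosolic and a mitochondrial enzyme of 1 gene each were measured, and the cytosolic enzyme had the larger difference in 13 of 13. Phenylalanine, glutamate and proline were not paired, since their cytosolic enzymes have separate subunit genes or share the bifunctional Eprs. For phenylalanine the subunits lay on either side of the mitochondrial enzyme, with 0.10 for Farsa and -0.08 for Farsb beside 0.07 for Fars2. Eprs differed by 0.48, beside 0.03 for the glutamate enzyme Ears2 and 0.17 for the proline enzyme Pars2. The difference of the changes, cytosolic minus mitochondrial, had a median of 0.41 and was largest for cysteine (1.07), serine (0.96), tyrosine (0.83), alanine (0.82) and methionine (0.73). It was smallest for threonine (0.14), isoleucine (0.04) and tryptophan (0.01). In 10 of the 13 pairs the cytosolic level minus the mitochondrial level was higher in every HtrA2_KO array than in every WT array. The cytosolic member of each of these pairs had every HtrA2_KO array above every WT array by itself too. The count thus largely repeats that result, and the share among unrelated pairs of genes was not computed. An exact permutation test over arrays, two-sided, gave p = 0.10 for each of these 10, the smallest that 3 against 3 arrays allow, and an adjusted p of 0.13 over the 13 pairs, so no pair could pass. For threonine the exact p was 0.40, and for isoleucine and tryptophan it was 1.

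**Figure D2:**
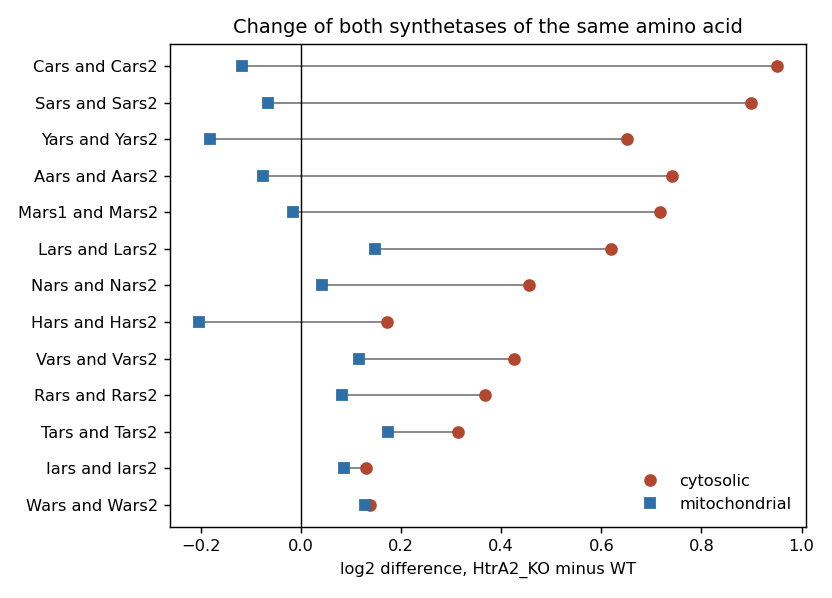
Log2 difference (HtrA2_KO minus WT, x axis) of the cytosolic (circle) and mitochondrial (square) enzyme of the same amino acid, for 13 pairs sorted by the gap between them. The circle lies to the right of the square in all 13, from a gap of 1.07 for Cars and Cars2 to 0.01 for Wars and Wars2.

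Arrays within a group differed in how far the members moved. Averaged over the 20 cytosolic members, the deviation from the WT mean was 0.49, 0.39 and 0.41 in HtrA2_KO replicates 1, 2 and 3, against 0.002, -0.01 and 0.009 in WT replicates 1, 2 and 3. All 3 knockout arrays thus lay far above all WT arrays. HtrA2_KO replicate 2 was the lowest knockout array for 11 of 20 members, but the highest for 4 (Sars, Cars, Lars and Wars). Among the 23126 probe sets with a difference above 0, it was the lowest knockout array in 36.9% and the highest in 45.3%. Over the 16 mitochondrial members the deviation was 0.10, 0.02 and -0.05 in HtrA2_KO replicates 1, 2 and 3, against -0.0002, 0.004 and -0.004 in WT replicates 1, 2 and 3. HtrA2_KO replicate 1 was the highest knockout array for 12 of these 16 members, beside 28.75% of all 45037 probe sets. It was also the highest for 11 of the 20 cytosolic members, beside 23.5% of the probe sets with a difference above 0.

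**Figure D3:**
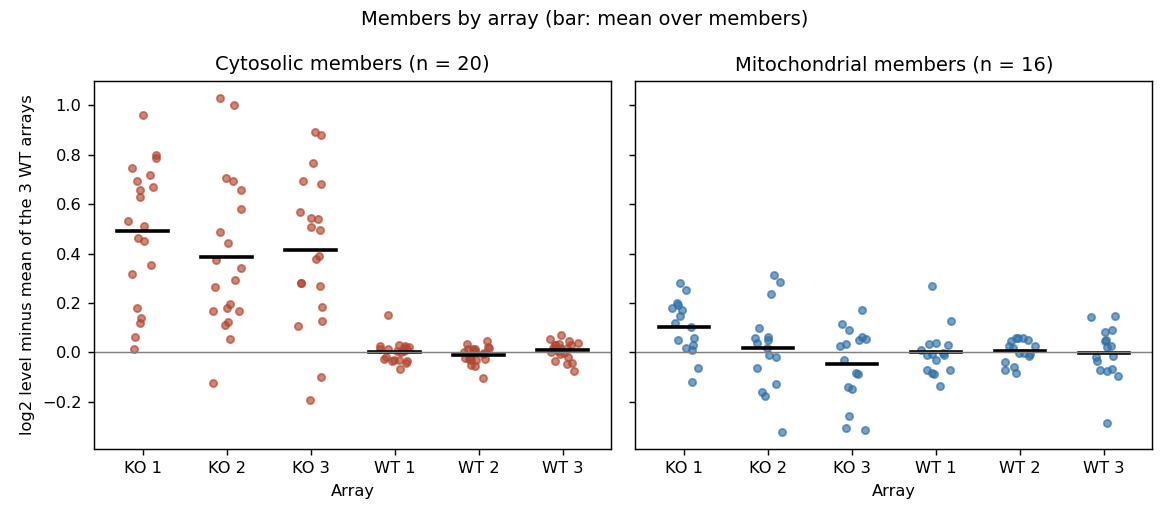
Log2 level of each member minus its mean over the 3 WT arrays (y axis) in each array (x axis), for 20 cytosolic and 16 mitochondrial members. Points are members and bars are their mean, which is 0.39 to 0.49 in the knockout arrays for cytosolic members and -0.05 to 0.10 for mitochondrial members.

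The count of risen members depended on which arrays entered the fit, as did calls over the whole array. Without WT replicates 1, 2 and 3 it was 3, 3 and 4 of 20, where 0.0999%, 0.0888% and 0.118% of all probe sets rose, beside 0.884% with all arrays. Without HtrA2_KO replicates 1, 2 and 3 it was 7, 14 and 5 of 20, where 0.306%, 4.46% and 0.135% of all probe sets rose. Cars, Sars and Aars passed in all 6 omissions, and Mars1 in 4. Lars passed in 3, Gars and Yars in 2, and Eprs, Nars and Xpot only without HtrA2_KO replicate 2, where Vars, Rars, Tars and Kars also passed. Among mitochondrial members 0 rose or fell in any omission by limma.

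**Figure D4:**
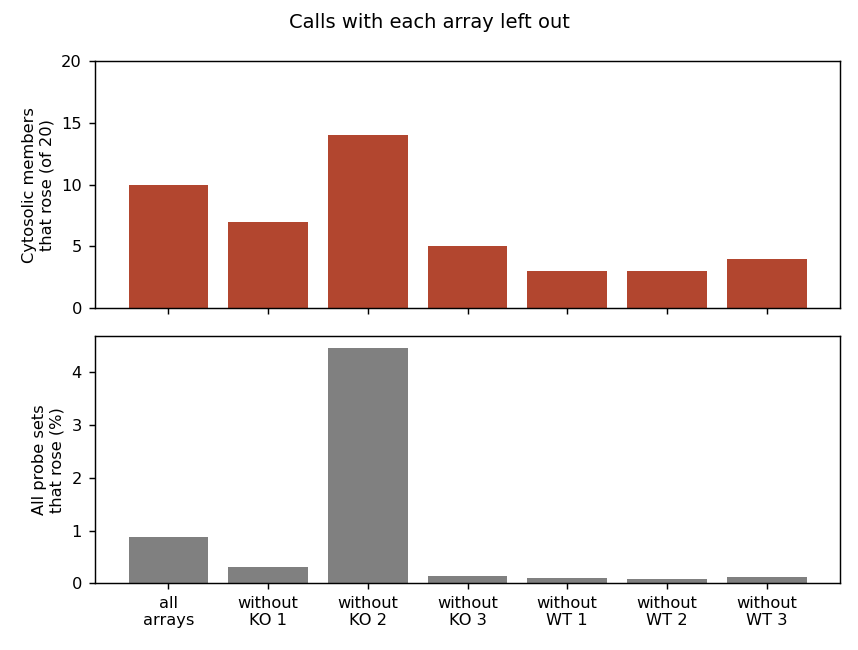
Number of the 20 cytosolic members that rose (upper bars) and percent of all 45037 probe sets that rose (lower bars) at an adjusted p under 0.05, with all arrays and with each array left out (x axis). Both fall when any WT array is left out and climb without HtrA2_KO replicate 2, to 14 members and 4.46% of probe sets.

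Other genes that make, carry or deliver tRNA were taken from a list chosen by function. Of 70 measured, 3 rose and 0 fell, where 1.39% of named genes rose and 1.05% fell, and the median difference was 0.07. Aimp1, a scaffold of the multisynthetase complex, rose by 0.60 ± 0.07 (adjusted p = 0.0139), with levels of 11.06, 11.07 and 11.13 in HtrA2_KO cortex and 10.47, 10.43 and 10.56 in WT cortex. The other scaffolds, Eef1e1 and Aimp2, differed by 0.09 and -0.03. Elac1, an endonuclease that trims tRNA ends, rose by 0.53 ± 0.10 (adjusted p = 0.0403), and Rpp30, a subunit of RNase P, by 0.40 ± 0.07 (adjusted p = 0.0375).

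In the remaining lists no gene passed. Trmt1, a tRNA methyltransferase, came nearest with 0.51 ± 0.10 (adjusted p = 0.0510) among 21 genes of tRNA modification. Tufm and Gatc, which serve mitochondrial translation as elongation factor and as a subunit of the amidotransferase for glutamine tRNA, differed by -0.30 ± 0.08 and 0.26 ± 0.07 (adjusted p = 0.103 and 0.107). Of 18 genes of RNA polymerase III transcription, which makes tRNA, Maf1, its repressor, had the smallest p (0.30 ± 0.08, adjusted p = 0.114). Dtd2 led the editing enzymes (0.36 ± 0.12, adjusted p = 0.170) and Sepsecs the selenocysteine genes (0.13 ± 0.08, adjusted p = 0.492).

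As a check of the labels, one probe set of Htra2 read 6.42, 7.08 and 6.45 in HtrA2_KO cortex and 8.89, 8.86 and 9.02 in WT cortex, every knockout array below every WT array. The other read 9.35, 9.35 and 9.27 in HtrA2_KO cortex and 8.23, 8.12 and 8.28 in WT cortex, higher in the knockout, and the parts of the transcript that the probe sets read were not analysed here. HtrA2_KO replicate 2 stood apart, with a root mean square deviation of 0.178 from its group mean, beside 0.0915 to 0.133 in the other arrays. Markers of cortex were present, the lowest of 5 cortical excitatory neuron markers being Tbr1 at a mean of 9.06.

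Several marker lists of cell types also differed between the groups. Their counts stand beside 1.39% of named genes that rose and 1.05% that fell. The mean level of the 8 microglia markers (0 rose, and P2ry12, Tmem119 and Itgam fell) was 8.59 to 8.67 in HtrA2_KO cortex and 8.84 to 9.06 in WT cortex. Of these, C1qa and C1qb differed by only -0.04 and 0.03. That of the 5 oligodendrocyte progenitor markers (0 rose, and Olig2 and Gpr17 fell) was 9.34 to 9.43 in HtrA2_KO cortex and 9.81 to 9.88 in WT cortex. The 7 oligodendrocyte markers (0 rose, and Ugt8a fell) averaged 11.53 to 11.67 in HtrA2_KO cortex and 11.79 to 11.96 in WT cortex. The 5 cortical excitatory neuron markers (0 rose, and Neurod6 fell by 0.66) averaged 10.62 to 10.71 in HtrA2_KO cortex and 10.86 to 10.92 in WT cortex. Their median difference was only -0.05. Tbr1 differed by -0.51 without passing, Camk2a by -0.05, and Slc17a7 and Neurod2 the other way, by 0.04 each. The 8 neuron markers (0 rose, and Nefm fell) averaged 12.4 to 12.5 in HtrA2_KO cortex and 12.7 in WT cortex, and the 8 astrocyte markers (Gfap rose, and Aqp4 and S100b fell) 11.3 to 11.4 in HtrA2_KO cortex and 11.5 in WT cortex. The 8 meningeal and mural markers (0 rose, 0 fell) averaged 9.04 to 9.50 in HtrA2_KO cortex and 8.89 to 9.13 in WT cortex. Relative to the WT mean they deviated by 0.34, 0.06 and 0.52 in HtrA2_KO replicates 1, 2 and 3, against -0.06, -0.09 and 0.15 in WT replicates 1, 2 and 3. The 6 inhibitory neuron, 5 endothelial and 4 choroid plexus markers had 0 that rose or fell by limma, and of 3 blood markers Alas2 fell. The means of these lists stood apart as well. Inhibitory neuron markers averaged 10.86 to 10.99 in HtrA2_KO cortex and 11.01 to 11.05 in WT cortex. Their median difference was only -0.03. Pvalb, Sst and Slc32a1 differed by -0.45, -0.30 and -0.09, and Gad1, Gad2 and Vip the other way, by 0.03, 0.03 and 0.18. Endothelial markers averaged 8.62 to 8.69 in HtrA2_KO cortex and 8.47 to 8.57 in WT cortex. Of these, Pecam1 and Slco1a4 had groups that stood apart, and those of Cldn5, Flt1 and Tek overlapped. For choroid plexus the ranges were 5.793 to 6.025 and 6.075 to 7.871, and for blood 5.85 to 5.96 and 6.22 to 6.39, in the same order. In these lists only Ttr and Alas2 had groups that stood apart. Those of Kl, Folr1 and Aqp1, and of the blood markers Hba-a1 and Ptprc, overlapped. Ttr, a choroid plexus gene, was at 12.9 in WT replicate 2 and at 7.32 to 8.62 in the other arrays. Apart from these values, the part of cell makeup in the rise of the cytosolic members was not tested.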

How the data were processed

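Total RNA of mouse cortex was hybridised as biotin-labelled cRNA to Affymetrix arrays, 1 per sample, per the labels' protocols. The deposited values are log2 levels made with RMA (version not given in the sources used here), per the submitters' processing notes. Since no base of the logarithm is stated, base 2 was assumed from their range. RMA gives arrays nearly the same distribution, so a shift shared by most genes would not show. The arrays give no counts, so 3 arrays per group limit the precision.

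After leaving out 64 array controls, 45037 probe sets were tested with no filter. Genes were named from the platform annotation where a probe set has 1 symbol (34945 probe sets), updated through gene identifiers to RefSeq, assembly GRCm38.p6. All 36 members matched. HtrA2_KO was compared with WT by limma 3.58.1 in R 4.3.3 (lmFit and eBayes, with genotype as the single factor). On simulated data with independent noise, the fit recovered 82 of 100 log2 changes of 1 and 100 of 100 changes of 2. Changes as small as those of the members were not simulated. Each gene counts once, at its single-symbol probe set with the highest mean. Pairs were tested by exact permutation over arrays. Promoters are RefSeq's. The members and lists were chosen with earlier results of these data known. Named genes were all members, Htra2 and, of the lists of tRNA genes, those that passed (at most 6) or else each list's smallest p. Aimp2, Eef1e1 and the cell type markers named were chosen after their values were seen.

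Replicate numbers are shared between the groups, but the labels do not say that they pair animals, and the design has no block. Alternatives covered probe set choice, filter, scaling, weights, threshold, a replicate block and leaving out arrays.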

Additional observations from a re-analysis of the deposited data

How the results depend on the processing

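The count of cytosolic members that rose (10 with all arrays) was 4 with the replicate number as a block, 6 without both replicates numbered 2 and 5 at an adjusted p under 0.01. Leaving out single arrays gave 3 to 14. The members lost under the block were Eprs, Gars, Lars, Nars, Yars and Xpot. Same-numbered arrays deviated from their group means with correlations of -0.20, -0.04 and -0.17, and differently numbered arrays with -0.06 to 0.22. Deviations from a mean of 3 arrays depend on each other, so these values cannot decide whether the numbers pair the samples. The median difference of cytosolic members (0.44) was 0.50 with array weights, 0.52 without both replicates numbered 2 and 0.37 to 0.53 when single arrays were left out. The median of mitochondrial members (0.06) was -0.032 when taken as the median over the probe sets of each member. The counts of cytosolic members that fell, and of mitochondrial members that rose or fell, were 0 in every alternative run. In the other alternatives run (probe sets with plain IDs, signal filter, limma-trend, quantile normalization, median centring, array weights, an adjusted p under 0.10 and any probe set of a member) 8 to 14 cytosolic members rose. With plain IDs Eprs did not pass, and Sars, Tars2, Fars2 and Yars2 have no such probe set. Over all probe sets, 398 were higher and 398 lower with all arrays. These counts were 920 and 850 with limma-trend, 903 and 854 above the median signal, 2431 and 1774 with array weights, 591 and 490 after quantile normalization, 262 and 295 with plain IDs, 82 and 72 with the block, 245 and 69 without both replicates numbered 2, 1015 and 1020 at an adjusted p under 0.10 and 47 and 32 under 0.01. Leaving out single arrays gave 40 to 2010 higher and 25 to 1027 lower. Of the pair differences, that of Cars and Cars2 was 0.57 with the mean over all their probe sets, against 1.07. The causes were not tested.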
